A study of Drosophila melanogaster with 3 samples.

Results

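Short stretches without signal, bounded by the same bases in separate purifications, were described in peak lists of the exon junction complex (EJC) from Drosophila melanogaster S2 cells, an established embryonic line with hemocyte-like properties. A gap is the stretch from the end of 1 peak to the start of the next on the same chromosome and strand. The gaps described here were chosen by their length, 50 to 75 nt, and by having both borders at identical bases in 2 or 3 of the 3 lists. They numbered 1232 of 85125 distinct gaps. Of the others, 8324 had the same range of lengths but occurred in a single list, and 766 were shared but shorter or longer. Because length and borders chose the gaps, the length profile and the number of lists are given as a description, while the depth and width of the flanking peaks were not used in the choice.

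The EJC is laid down on mRNA by the spliceosome, a short and nearly fixed distance upstream of the place where exons were joined, and is removed when ribosomes pass. eIF4AIII is the RNA helicase that clamps the RNA, Y14 works as a dimer with Mago and locks the clamp, and Btz (Barentsz) binds eIF4AIII and the RNA. Drosophila has many short introns with a narrow range of preferred lengths, and an intron that has been spliced out leaves an interruption in RNA reads placed on the genome. The lists were not set against intron positions, so the gaps below are called by their borders and not by a gene or intron.

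The 3 libraries came from cells with a copper-inducible tagged EJC protein, grown for 72 h and given cycloheximide, a blocker of translation, at 100 µg/ml for 2 h. After capture of the tag and selection of poly(A) RNA, micrococcal nuclease (MNase) trimmed the RNA for 15 min, and an antibody to an endogenous EJC protein made the last capture. They are named tag first and antibody second. In eIF4AIII/Y14 and Btz/eIF4AIII 0.5 units of MNase were used, and in Y14/eIF4AIII 0.3 units. All 3 groups carried a tagged protein and cycloheximide, and no purification without them was analysed here. With 1 library for each purification, differences between them could not be tested. In comparisons with Y14/eIF4AIII the MNase dose, the proteins captured and the read length, which is not given, cannot be told apart. Between eIF4AIII/Y14 and Btz/eIF4AIII the dose was the same, but the proteins captured and the read length cannot be told apart. The lists held 34945, 36393 and 16094 peaks in the order given. The value deposited with a peak, multiplied by its width, came to a whole number in each list for 100% of the peaks (tolerance 0.001), as a mean number of reads per base would be, and it is called depth here. Depth is not scaled between libraries. The shortest gap in each list was 25 nt, so peaks closer than that do not occur separately. Intervals are exact (Clopper-Pearson) 95% binomial intervals, which cover counting error only and treat gaps as independent.

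eIF4AIII/Y14 and Btz/eIF4AIII alone shared 830 of the 1232 gaps, or 67.4%. Btz/eIF4AIII and Y14/eIF4AIII alone shared 205 gaps (16.6%), eIF4AIII/Y14 and Y14/eIF4AIII alone shared 46 (3.73%), and all 3 lists shared 151 (12.3%; 10.5 to 14.2). The gaps made up 1027 of 3497 gaps of 50 to 75 nt in eIF4AIII/Y14 (29.4%), 1186 of 6288 in Btz/eIF4AIII (18.9%) and 402 of 1154 in Y14/eIF4AIII (34.8%). Over gaps of every length, 4.68%, 5.26% and 4.23% were shared in the same order. These shares restate the rule. Peaks under 10 nt bounded many of the gaps, and with such peaks left out of all lists 634 gaps met the rule.

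The lengths peaked at 60 nt after smoothing over 5 nt, with a median of 61 nt and quartiles of 58 and 65 nt. The most frequent single lengths were 61 nt with 104 gaps and 58 nt with 101. From 56 to 65 nt lay 822 gaps, or 66.7%. At the lower limit of the rule there were 5 shared gaps of 50 nt, and just outside it 3 of 49 nt. At the upper limit there were 13 of 75 nt, and outside it 15 of 76 nt, so the profile had nearly ended on the short side and tailed off on the long side. The genome annotation of release 6 holds 26193 introns of 50 to 75 nt, 43.3% of its 60508 introns, with the same smoothed mode of 60 nt, the same median of 61 nt and quartiles of 57 and 65 nt. Of these introns 61.0% were 56 to 65 nt long. Gaps of 50 to 75 nt found in a single list were 56 to 65 nt long in 45.7% of cases in eIF4AIII/Y14, in 55.2% for Btz/eIF4AIII and in 51.2% for Y14/eIF4AIII, and their smoothed mode was also 60 nt in each list. Multiples of 3 made up 30.6% of the shared lengths (28.04 to 33.26). For the annotated introns of 50 to 75 nt the share was 33.05%, close to the upper limit of that interval. Since length chose the gaps, this is a description.

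**Figure D1:**
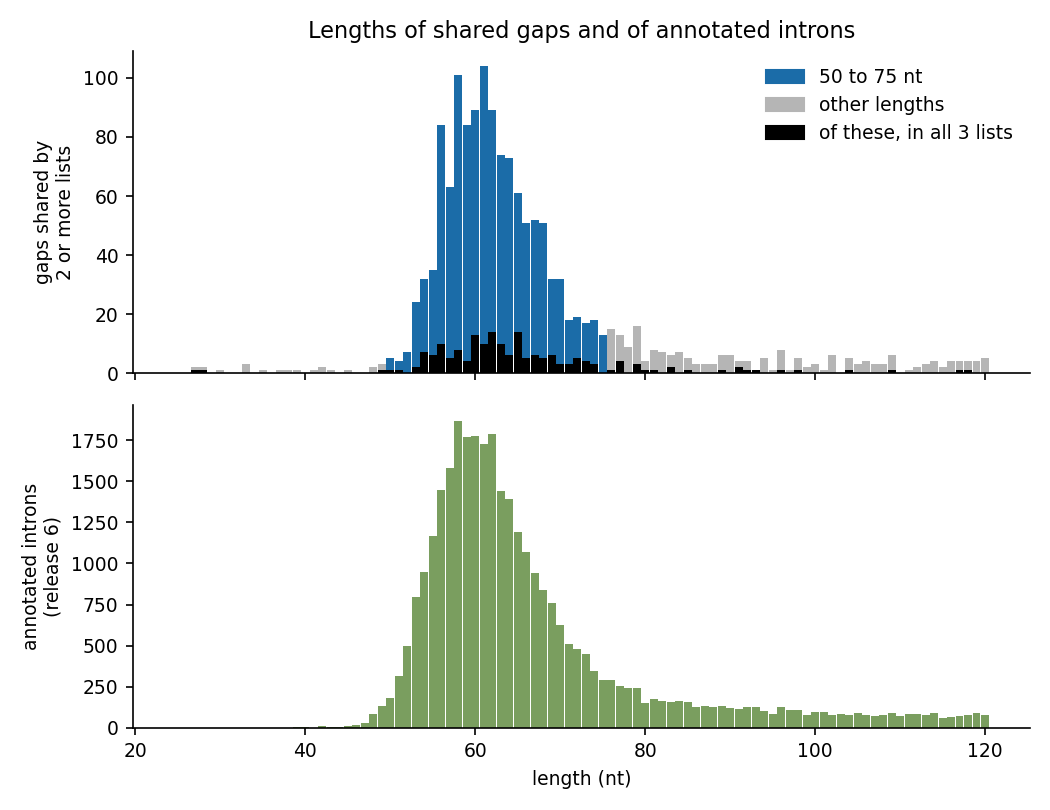
Number of gaps shared by 2 or more lists at each length in nt (top; blue for 50 to 75 nt, grey for other lengths, black for those in all 3 lists) and number of annotated introns of release 6 at each length (bottom). Both profiles have their smoothed mode at 60 nt.

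The gaps lay on both strands in nearly equal numbers, 611 on plus and 621 on minus, and all but 6 were on the main arms. Counts were 310 on 2R, 291 on 3R, 241 on 3L, 218 on 2L, 136 on X and 30 on chromosome 4. Set against the annotated introns of the same length on each arm, this was 51.8 gaps per 1000 introns on 2R, 49.6 on 3L, 45.6 on 2L, 43.6 on 3R and 38.3 on X. Chromosome 4, small and largely heterochromatic, had 111 per 1000, from 270 introns. In Btz/eIF4AIII 28.04% (19.8 to 37.5) of the chromosome 4 gaps of 50 to 75 nt were shared, against 16.8% (14.2 to 19.6) on X, and the values on the other main arms ran from 18.1% to 19.8%. In eIF4AIII/Y14 the chromosome 4 share was 31.9%, with an interval of 22.5 to 42.5 that holds the shares of the other main arms, 26.1% to 31.1%. Of the 30 gaps, 2 were in Y14/eIF4AIII, which had 10 gaps of this length on chromosome 4.

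Neighbouring gaps of the set were mostly far apart. From the end of 1 to the start of the next on the same strand the median distance was 70530 nt, with quartiles of 6624 and 266024 nt. A minority stood close together: 280 gaps, or 22.7% (20.4 to 25.2), had another within 1000 nt. The same share is not given for other gaps, so this value is a description of the set alone. Among the 161 steps of up to 1000 nt the median was 343 nt, and the shortest was 44 nt. In annotated transcripts of release 6, internal exons with an intron of 50 to 75 nt on either side had a median length of 229 nt and quartiles of 149 and 453.5 nt. The stretch between neighbours was filled from border to border by a single peak at 30 steps in at least 1 list, with a median length of 130.5 nt and a range of 44 to 442 nt. Btz/eIF4AIII had such a peak at 25 steps, eIF4AIII/Y14 at 11 and Y14/eIF4AIII at 3. Of windows of 10 kb on 1 strand, 779 held a single gap of the set and 188 held more, up to 7 in 2L 8220001 to 8230000 and in 3L 6200001 to 6210000, both on the minus strand.

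The longest chains joined by such peaks had 3 gaps each, and there were 3 of them. The chain on 2R, plus strand, had gaps at 12070179 to 12070241, 12070420 to 12070487 and 12070624 to 12070690 (release 5 by sequence names, 1-based). A Btz/eIF4AIII peak of 178 nt and 551 reads per base filled the first stretch between them, and another of 136 nt and 506 reads filled the next. In eIF4AIII/Y14 the first stretch was filled at 138 reads per base, while next to the last gap a peak of 36 nt and 325 reads stood upstream and one of 4 nt and 70 reads downstream. The other chain on 2R plus ran from 9114145 to 9114490, with stretches of 83 and 84 nt filled in both eIF4AIII/Y14 and Btz/eIF4AIII. The chain on 3R, minus strand, ran from 5194361 to 5194776, with stretches of 129 and 87 nt filled in Btz/eIF4AIII at 733 and 461 reads per base. At the gap of that chain at 5194706 to 5194776, Y14/eIF4AIII had 1222 reads per base on both sides, over 62 nt upstream and 1 nt downstream.

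Depth was higher upstream of the gap than downstream in eIF4AIII/Y14, following the strand column of the lists. There the upstream peak was the deeper at 798 of 1027 gaps, or 77.7% (75.03 to 80.2), against 49.4% of all eIF4AIII/Y14 gaps up to 2000 nt. Median depths were 163 reads per base upstream and 46 downstream, and the median of the ratio within a gap was 3.06. The median upstream depth over all gaps up to 2000 nt was 53.8 reads per base, so the peaks upstream of shared gaps were also deeper than those upstream of other gaps. The share varied with depth. At 173 eIF4AIII/Y14 gaps whose deeper flank was below the list median, 47.4% were deeper upstream, 21.4% downstream and 31.2% equal. At the 854 others these were 83.8%, 12.4% and 3.75%. The part of this depth in the other values was not tested. In Btz/eIF4AIII the upstream peak was the deeper at 715 of 1186 gaps, or 60.3% (57.4 to 63.1), against 50% of all its gaps up to 2000 nt. Its median depths were 263 and 209 reads per base and the median ratio 1.08. In Y14/eIF4AIII it was the deeper at 160 of 402 gaps, or 39.8% (35.0 to 44.8), against 48.2% of all its gaps. The downstream peak was the deeper at 26.9% of these, and depths were the same on both sides at the remaining 134. Where depths differed, the upstream side was the deeper at 84.8% (82.4 to 87.0) in eIF4AIII/Y14, 64.5% (61.6 to 67.4) in Btz/eIF4AIII and 59.7% (53.6 to 65.6) in Y14/eIF4AIII. Over all gaps up to 2000 nt with unequal depths these shares were 50.4%, 52.1% and 50.9%. Depth times width, the coverage summed over the peak, was larger upstream at 90.4%, 74.4% and 64.4% of the gaps of the set in the same order. This measure rises with width as well as depth, and at equal depths width alone decides it. No share over all gaps is given for it.

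The direction held on each strand taken alone, although upstream lies at the lower coordinate on plus and at the higher one on minus. In eIF4AIII/Y14 the upstream peak was the deeper at 74.8% of plus gaps and 80.6% of minus gaps. Btz/eIF4AIII had 58.8% on plus and 61.8% on minus. Y14/eIF4AIII had 40.2% and 39.4% upstream, against 26.8% and 26.9% downstream. Over its gaps up to 2000 nt the upstream shares were higher, 48.1% and 48.3%, with equal depths counted. Where depths differed, the upstream shares were 60% and 59.4% in the set, against 51.0% and 50.8% over its gaps up to 2000 nt. By main arm, Y14/eIF4AIII was deeper upstream more often on 2L, 2R, 3L and X. On 3R it was deeper upstream at 26 gaps, downstream at 28 and equal at 43, and chromosome 4 had 1 of each side. Gaps of 50 to 75 nt in a single list differed less between the sides in each list, with eIF4AIII/Y14 deeper upstream at 47.8% and downstream at 43.9%, Btz/eIF4AIII at 50.7% and 37.6%, and Y14/eIF4AIII at 41.2% and 39.0%. Shared gaps of other lengths were close to the set, with 72.8%, 56.5% and 43.9% deeper upstream. Within the set, length made little difference in eIF4AIII/Y14, with 72.4% for 50 to 57 nt, 79.7% for 58 to 65 nt and 77.7% for 66 to 75 nt, and intervals that overlapped.

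The flanking peaks also differed in how far they reached from the border. The eIF4AIII/Y14 peaks had median widths of 42 nt upstream and 10 nt downstream, those of Btz/eIF4AIII 54.5 and 33 nt, and those of Y14/eIF4AIII 38 and 24 nt. Over all peaks of each list the median width was 31, 53 and 48 nt in the same order. Shared gaps of other lengths were close to the set, with medians of 42.5 and 12 nt, 53 and 38 nt, and 38 and 29 nt. A distance of 22 nt was used to compare sides, as one typical of the place where EJCs are laid down. The upstream peak reached at least 22 nt at 94.3% of the eIF4AIII/Y14 gaps (background over gaps up to 2000 nt 80.5%), 96.8% of the Btz/eIF4AIII gaps (89.6%) and 78.6% of the Y14/eIF4AIII gaps (89.8%). The downstream peak did so at 28.04% in eIF4AIII/Y14 (background 79.9%), 66.02% in Btz/eIF4AIII (88.7%) and 53.7% in Y14/eIF4AIII (89.3%). At shared gaps of other lengths the upstream peak did so at 92.6%, 94.4% and 75.5%, and the downstream peak at 36.1%, 71.5% and 59.0%. In the set, eIF4AIII/Y14 reached that far upstream alone at 704 gaps and downstream alone at 24. Btz/eIF4AIII had 391 against 26 such gaps and Y14/eIF4AIII 160 against 60. Over all gaps up to 2000 nt these counts were 4288 against 4137, 3083 against 2828 and 835 against 791. Single-list gaps of 50 to 75 nt had 653 against 351, 1355 against 388 and 116 against 87. Downstream peaks of at most 12 nt stood in the set at 61.6% of the eIF4AIII/Y14 gaps (58.6 to 64.6), 18.5% of the Btz/eIF4AIII gaps and 31.6% of the Y14/eIF4AIII gaps. A share over all gaps is not given for this limit. Medians on the plus and minus strands were 41 and 43 nt upstream and 10 nt downstream on both in eIF4AIII/Y14, and differed by 1 to 5 nt in the other lists. With peaks under 10 nt left out of the lists, the medians of the eIF4AIII/Y14 peaks were 46 and 23 nt.

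**Figure D2:**
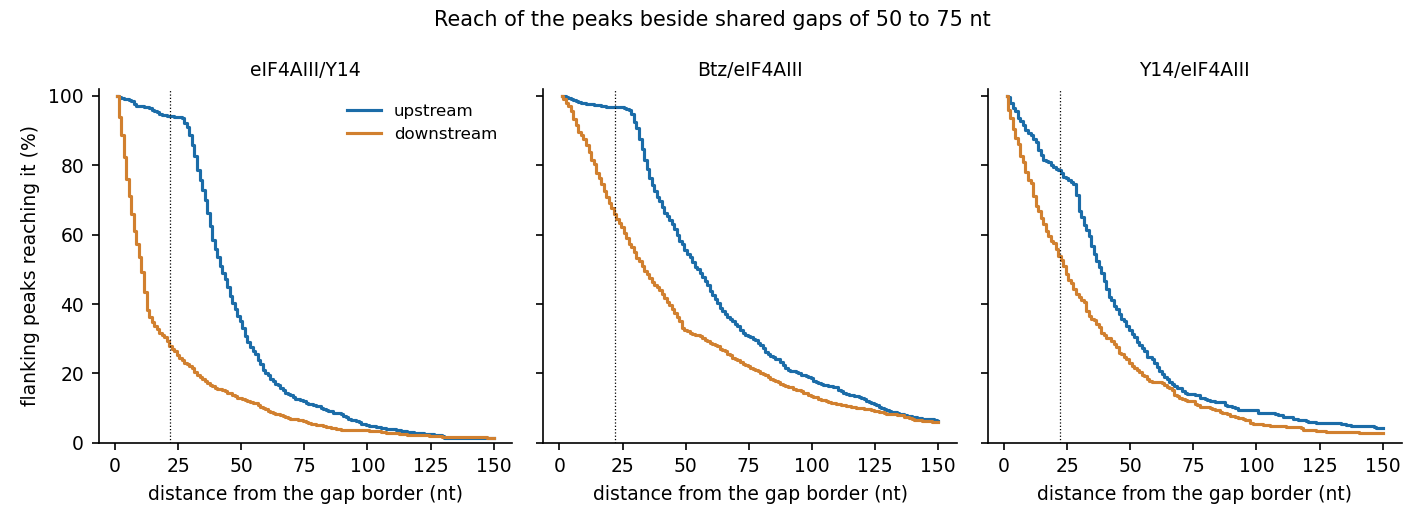
Percent of the peaks beside shared gaps of 50 to 75 nt that reach at least the distance on the horizontal axis (nt from the border), upstream in blue and downstream in orange, for each list (n = 1027, 1186 and 402). The dotted line marks 22 nt, reached upstream at 94.3%, 96.8% and 78.6%; at 28 nt the upstream curves still stand at 92.3%, 95.9% and 74.6%, the last having fallen steadily from the border.

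In eIF4AIII/Y14 and Btz/eIF4AIII few upstream peaks had their outer edge in a band close to the border, while Y14/eIF4AIII was near the level over all gaps. In eIF4AIII/Y14, 45 upstream peaks (4.38%) ended 13 to 27 nt from the gap and 445 (43.3%) ended in the next band of equal size, 28 to 42 nt. In Btz/eIF4AIII these numbers were 23 (1.94%) and 363 (30.6%), and in Y14/eIF4AIII 49 (12.2%) and 134 (33.3%). The outer band thus held 9.89, 15.8 and 2.73 times as many edges as the inner one. Over all gaps up to 2000 nt the inner band held 30.1%, 9.17% and 11.3% of the upstream edges, and the same ratios were 1.31, 1.98 and 1.93. Nearer still, within 12 nt, ended 3.31%, 2.19% and 13.2% of the upstream peaks of the set, again without a share over all gaps. Downstream, the inner band held more, with 158 against 79 edges in eIF4AIII/Y14, 286 against 198 in Btz/eIF4AIII and 97 against 60 in Y14/eIF4AIII. Downstream over all gaps up to 2000 nt, the outer band held 1.28, 1.74 and 1.90 times as many edges as the inner one. On plus and minus alone, the upstream ratio was 12.3 and 8.15 for eIF4AIII/Y14, while Btz/eIF4AIII had 10.4 and 28.1 and Y14/eIF4AIII had 2.37 and 3.18. The bands were set after the widths had been seen. The commonest upstream width, smoothed over 5 nt, was 36 nt in eIF4AIII/Y14, 33 nt in Btz/eIF4AIII and 30 nt in Y14/eIF4AIII.

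At gaps that a list took no part in choosing, its peaks lay mainly upstream as well. Of 356 gaps of 50 to 75 nt shared by Btz/eIF4AIII and Y14/eIF4AIII, 79.5% (74.9 to 83.6) had the base 22 nt upstream under an eIF4AIII/Y14 peak and 23.9% (19.5 to 28.7) the base 22 nt downstream. For all gaps up to 2000 nt of the other lists these values were 29.4% and 21.9%. Such gaps needed to be in only 1 of the other lists, here and below. They were not matched to the shared gaps in length or depth. At the 197 gaps that eIF4AIII/Y14 shared with Y14/eIF4AIII, Btz/eIF4AIII covered 81.7% (75.6 to 86.9) upstream and 56.3% (49.1 to 63.4) downstream, against 36.8% and 39%. At the 981 gaps that eIF4AIII/Y14 shared with Btz/eIF4AIII, Y14/eIF4AIII covered 28.1% (25.3 to 31.1) upstream and 13.97% (11.9 to 16.3) downstream, against 13% and 12.8%. Upstream values were alike on both strands. On plus and minus eIF4AIII/Y14 covered 136 of 170 and 147 of 186 gaps, Btz/eIF4AIII 80.8% and 82.7%, and Y14/eIF4AIII 27.4% and 28.8%. Downstream the strands were within 1 point of each other in eIF4AIII/Y14 and Y14/eIF4AIII, while Btz/eIF4AIII covered 60.6% on plus and 52.0% on minus. The 151 gaps in all 3 lists enter each of these counts, and leaving them out lowered every value. At the 205 gaps that eIF4AIII/Y14 did not share, it covered 66.8% (59.9 to 73.2) upstream and 14.1% (9.68 to 19.7) downstream. At the 46 that Btz/eIF4AIII did not share, it covered 37.0% (23.2 to 52.5) upstream, near the 36.8% over all gaps, and 10.9% (3.62 to 23.6) downstream, below the 39%. At the 830 that Y14/eIF4AIII did not share, it covered 17.8% (15.3 to 20.6) upstream and 8.19% (6.42 to 10.3) downstream. Upstream coverage was thus the higher in each list without the 151 gaps. Leaving these out takes away the gaps where the list has a peak at both borders. The values over all gaps carry no such condition, so they cannot show whether coverage at the remaining gaps was raised.

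**Figure D3:**
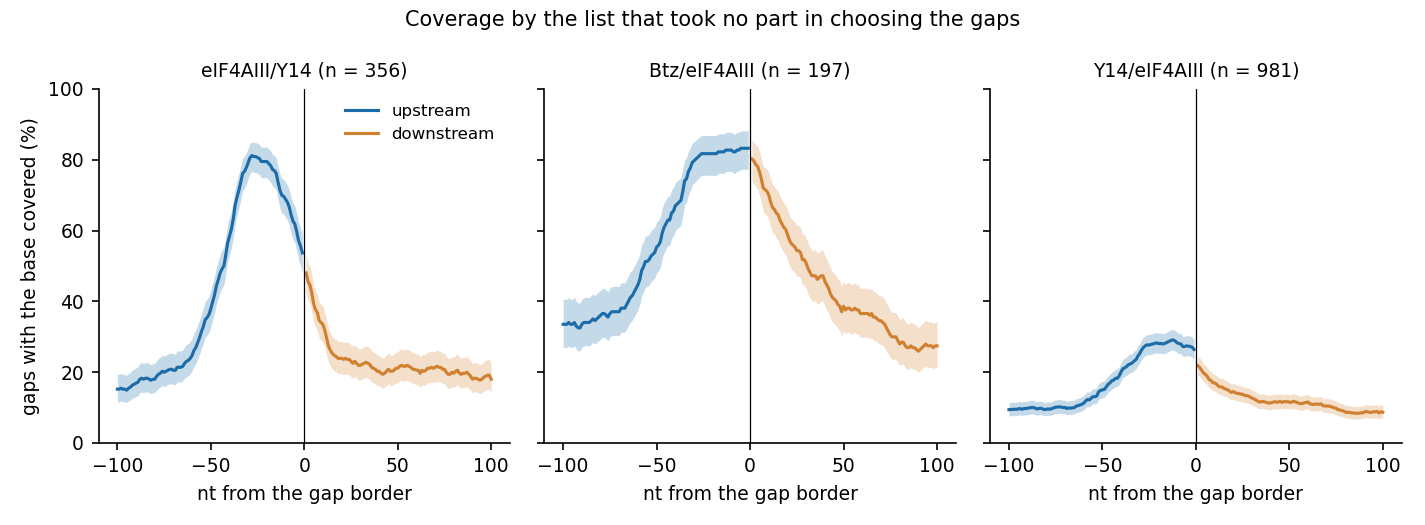
Percent of gaps of 50 to 75 nt shared by the other lists whose base at the given distance from the border (nt; negative upstream, positive downstream, gap itself not drawn) lies under a peak of the list named above the panel. Bands are exact 95% binomial intervals over gaps; eIF4AIII/Y14 is highest 28 nt upstream, at 81.2%.

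The shape of this coverage differed between the lists in their own profiles. eIF4AIII/Y14 was highest 28 nt upstream (81.2%), fell to 53.7% at the base next to the gap, began at 48.0% downstream and was at 21.1% by 50 nt. Btz/eIF4AIII was highest, 83.2%, at the border itself and 5 nt upstream, and began at 80.2% downstream. Y14/eIF4AIII was highest at 12 and 13 nt upstream (29.1%) and had 26.4% and 21.8% at the borders. At 80 nt upstream and downstream the lists had 18.0% and 19.7%, 36.0% and 27.9%, and 9.48% and 8.66%, in the order of the panels.

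Where the same gap was absent from the list, eIF4AIII/Y14 had a peak upstream alone more often than downstream alone. For the states below, no share over all gaps is given. Of its 356 gaps, 151 (42.4%) were present with both borders, and 91 (25.6%; 21.1 to 30.4) had a peak within 50 nt upstream and none downstream. The reverse held at 7 (1.97%; 0.794 to 4.01). At 51 there was no peak within 50 nt, at 36 there were peaks on both sides with another border, and at 20 a peak reached into the gap. In Btz/eIF4AIII 151 of 197 gaps were present (76.6%), with 9 upstream alone, 7 downstream alone and 21 without a peak. In Y14/eIF4AIII 582 of 981 gaps (59.3%; 56.2 to 62.4) had no peak on either side, 151 (15.4%) were present, 92 had a peak upstream alone and 57 downstream alone.

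**Figure D4:**
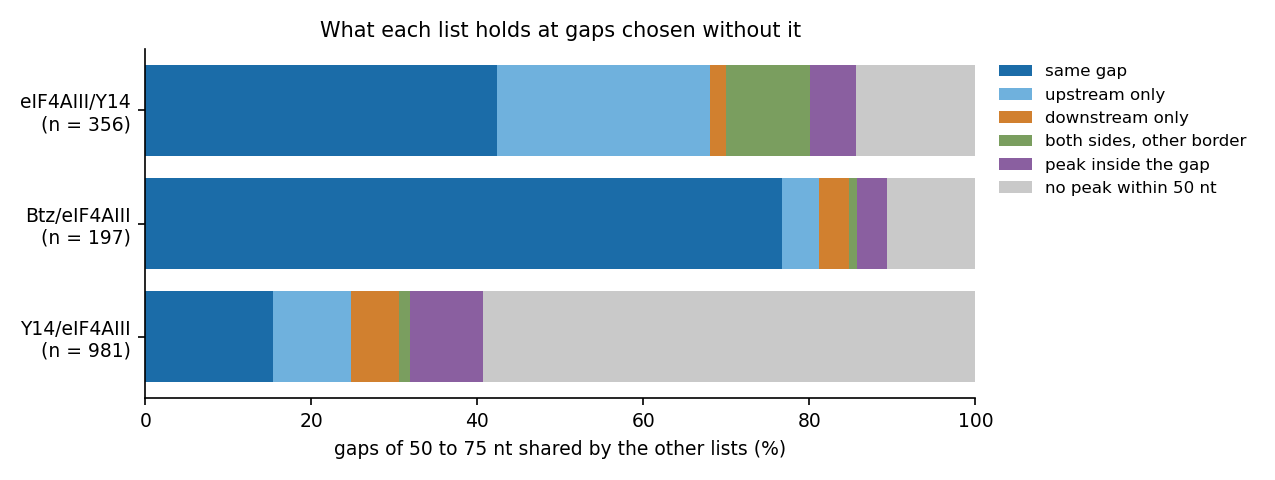
Horizontal axis, percent of the gaps of 50 to 75 nt shared by the other lists; colours, what the list named at the left holds there. eIF4AIII/Y14 had a peak upstream alone at 25.6%, Btz/eIF4AIII at 4.57% and Y14/eIF4AIII at 9.38%.

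Some gaps kept 1 border in the remaining list while the other lay elsewhere. The upstream border alone was kept at 63 gaps, and at 50 of them the gap of that list was longer, by a median over all 63 of 111 nt. The downstream border alone was kept at 29, of which 19 were shorter, with a median difference of -3 nt, and 11 of these lay within 10 nt of the shared length, against 5 of the 63. The 3 smallest differences among these 92 were all of 1 nt with the downstream border kept. On 2L at 8118850 to 8118903, minus strand, and on 2R at 7917106 to 7917168, plus strand, the Btz/eIF4AIII gap was 1 nt shorter, 53 and 62 nt. On 3L at 3221284 to 3221351, minus strand, the eIF4AIII/Y14 gap was 1 nt longer, 69 nt.

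The same depth on both sides was more frequent at these gaps than over all gaps up to 2000 nt, and most frequent in Y14/eIF4AIII. It was found at 86 of 1027 in eIF4AIII/Y14 (8.37%; 6.75 to 10.2), 78 of 1186 in Btz/eIF4AIII (6.58%; 5.23 to 8.14) and 134 of 402 in Y14/eIF4AIII (33.3%; 28.7 to 38.2). Over all gaps up to 2000 nt it was found at 2.12%, 4.03% and 5.29%. Equality means the same deposited value, with no tolerance. A difference of at most 0.1 on the log2 scale was found at 12.5%, 21.2% and 50.0% of the set, against 4.77%, 9.53% and 8.57% of all gaps up to 2000 nt. By length alone, whether shared or not, the same depth occurred at 8.32%, 10.8% and 24.5% of gaps of 50 to 75 nt, at 0.541%, 0.297% and 0.916% of those of 25 to 49 nt and at 1.93%, 3.90% and 5.25% of those of 76 to 99 nt. In Btz/eIF4AIII single-list gaps of 50 to 75 nt had the same depth more often than the set, at 11.8%, and in eIF4AIII/Y14 equally often, at 8.30%. In Y14/eIF4AIII they had it less often, at 19.8% (17.0 to 22.8). Shared gaps of other lengths had the same depth at 8.75% in eIF4AIII/Y14 and 7.29% in Btz/eIF4AIII, close to the set. In Y14/eIF4AIII they had it at 24.8% (19.9 to 30.3).

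Where depths were the same, the summed width of both peaks ended, within the set, at a length that many gaps reached exactly. In eIF4AIII/Y14 the sum ran from 15 to 40 nt and was exactly 40 nt at 23 of the 86 gaps (26.7%; 17.8 to 37.4). In Btz/eIF4AIII it ran from 16 to 76 nt and was exactly 76 nt at 11 of 78 (14.1%; 7.26 to 23.8). In Y14/eIF4AIII it ran from 15 to 76 nt, with 15 of 134 at 76 nt (11.2%; 6.402 to 17.8). In each list the largest sum was also the most frequent one of the set. Over all gaps up to 2000 nt with the same depth, 21.8% (121 of 555) stood at 40 nt in eIF4AIII/Y14, 11.9% (136 of 1141) at 76 nt in Btz/eIF4AIII and 5.44% (27 of 496) at 76 nt in Y14/eIF4AIII, and 71, 36 and 17 gaps had larger sums. Single-list gaps of 50 to 75 nt stood there at 24.4%, 13.3% and 4.70%, with 4, 1 and 2 larger sums. In eIF4AIII/Y14 and Btz/eIF4AIII the share at that length was thus close to that of other gaps. The depth was a whole number at all of these gaps. Sums beyond that length were common where depths differed, with eIF4AIII/Y14 at 86.1% of such gaps of the set, Btz/eIF4AIII at 68.3% and Y14/eIF4AIII at 50.7%. Median depth was 38, 17.5 and 34.5 reads per base at gaps with the same depth, and 200, 386 and 280.5 on the deeper side at the others. Read lengths are not given in the sources used.

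**Figure D5:**
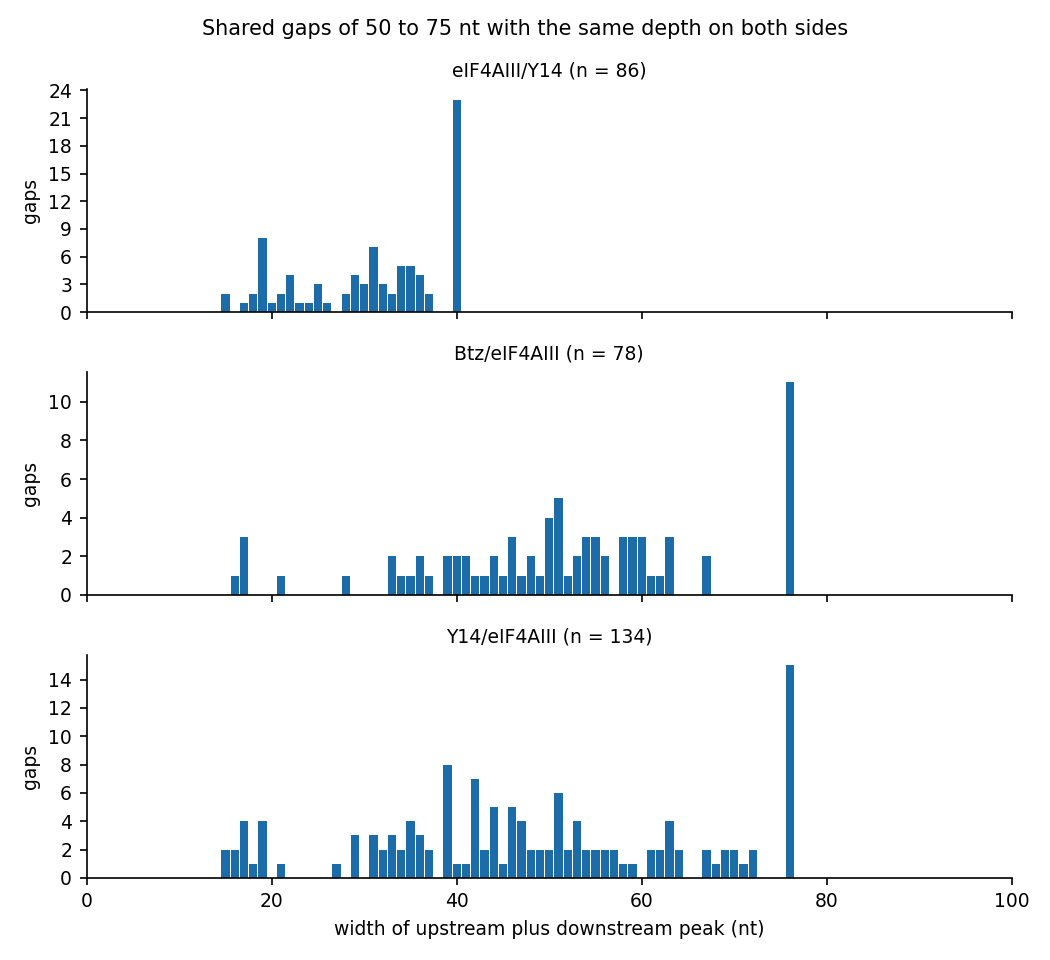
Number of shared gaps of 50 to 75 nt (vertical axis) by the summed width in nt of the upstream and downstream peak (horizontal axis), for gaps whose flanking peaks have the same depth. The eIF4AIII/Y14 sums end at 40 nt, those of the other lists at 76 nt, each with its highest bar at the end.

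The purifications placed the deeper side of a given gap differently. Among the 151 gaps in all 3 lists the upstream peak was the deeper in all lists at 32 (21.2%) and the downstream peak in all lists at 3 (1.99%). The next most frequent states were upstream in eIF4AIII/Y14 and Btz/eIF4AIII with the same depth in Y14/eIF4AIII, at 24, and upstream in the former lists with downstream in Y14/eIF4AIII, at 22. At these 151 gaps eIF4AIII/Y14 had the same depth on both sides at 3 (1.99%), Btz/eIF4AIII at 7 (4.64%) and Y14/eIF4AIII at 50 (33.1%). Of 981 gaps in both eIF4AIII/Y14 and Btz/eIF4AIII, 492 (50.2%) were deeper upstream in both, 54 downstream in both, 244 upstream in eIF4AIII/Y14 and downstream in Btz/eIF4AIII, and 65 the reverse. Ranks of depth were hardly related between lists. Spearman coefficients over gaps were 0.11 upstream and 0.05 downstream for eIF4AIII/Y14 with Btz/eIF4AIII (n = 981), 0.10 and -0.12 for eIF4AIII/Y14 with Y14/eIF4AIII (n = 197) and 0.23 and 0.13 for Btz/eIF4AIII with Y14/eIF4AIII (n = 356). Widths were related more, with 0.24 and 0.28, 0.33 and 0.45, and 0.38 and 0.27 in the same order. Gaps of 1 gene share the level of that gene, and these coefficients are a description.

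Of the gaps in all 3 lists, 10 were named for having the highest rank of depth, within each list, at the least deep of their 6 flanking peaks. The first, of 55 nt, was found on the minus strand of 2L at 17476362 to 17476416. Upstream its eIF4AIII/Y14 peak had 213 reads per base, and downstream 635, its Btz/eIF4AIII peaks 1984 and 1750, and its Y14/eIF4AIII peaks 1253 and 908. It was thus deeper downstream in eIF4AIII/Y14 alone, where the downstream peak was 203 nt wide. The second, on 2L at 19409704 to 19409768, minus strand, was flanked in eIF4AIII/Y14 by 388 reads per base upstream and 281.5 downstream. Btz/eIF4AIII had 3758 and 4686, Y14/eIF4AIII 429 and 882, so both were deeper downstream. The eIF4AIII/Y14 peaks there were 91 nt wide upstream and 4 nt downstream. On 2R, plus strand, the gap at 1655359 to 1655418 had the steepest fall of the 10 in eIF4AIII/Y14, from 1186 reads per base over 52 nt to 95.3 over 60 nt. Btz/eIF4AIII had 743 and 991 reads there and Y14/eIF4AIII 1036 and 1442, both deeper downstream.

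On chromosome 4, minus strand, the gap at 375593 to 375656 was deeper upstream in all lists (eIF4AIII/Y14 648 against 83.1 reads per base, Btz/eIF4AIII 2034 against 1674, and Y14/eIF4AIII 651 against 489.6). The plus-strand gap at 2893452 to 2893509 on 3R had in Y14/eIF4AIII 234 reads per base on both sides, over 27 and 23 nt, while eIF4AIII/Y14 was deeper downstream with 75.2 and 122 reads and Btz/eIF4AIII upstream with 741 and 634. A further gap with the same depth on both sides in Y14/eIF4AIII, 78 reads per base over 59 and 17 nt, was on 3L at 3119549 to 3119603, minus strand. On 2R at 13001078 to 13001133, plus strand, Y14/eIF4AIII had nearly the same depth, 211.3 over 68 nt and 211 over 3 nt. The other 3 of the 10 lie on 3R, at 5351867 to 5351935 and 27611305 to 27611366 on plus and at 23083366 to 23083430 on minus, and were deeper upstream in eIF4AIII/Y14 and Btz/eIF4AIII and downstream in Y14/eIF4AIII.

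The shortest gap in all 3 lists, 50 nt, was on 3L at 18872561 to 18872610, minus strand. Its eIF4AIII/Y14 peaks had 8324 reads per base upstream over 54 nt and 671 downstream over 12 nt. Btz/eIF4AIII had 314 and 38.1 there, Y14/eIF4AIII 16 and 8, so that all lists were deeper upstream. The longest were of 74 nt, on 2R at 13415254 to 13415327, on 3L at 20508887 to 20508960 and on 3R at 8227042 to 8227115, all on minus. On 3R the eIF4AIII/Y14 peaks had 1065 and 111 reads per base, the Btz/eIF4AIII peaks 14.7 and 11.2, and both Y14/eIF4AIII peaks 78, over 39 and 5 nt. All 3 were deeper upstream in eIF4AIII/Y14.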

How the data were processed

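A stranded list of peaks was deposited for each library; its score column is a signal value per peak from the authors. Per the file headers, tracks were named as clipped and merged. The submitters' processing notes list Bowtie and SAMtools with no version. Not given in the sources used here are the peak caller, its threshold, the read length, the library totals and the genome build, so the depth of a library is unknown. The sequence names are those of release 5, while the annotation used is Ensembl 115 for release 6, from which only lengths and numbers per chromosome of introns and exons were taken. The track of the eIF4AIII/Y14 list names Y14 alone; samples were grouped by their labels.

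Gaps, sharing, flanks and coverage were computed with Python 3.11.15, pandas 2.3.3, NumPy 2.4.6 and SciPy 1.17.1, and the functions were tested on simulated data. Starts were converted to 1-based. The gaps and measures were chosen with earlier results of these data known. Places named are the 10 deepest gaps in all 3 lists by rank, the 3 longest chains, the shortest and longest gaps in all 3 lists and 3 gaps whose border in the remaining list differs; taking the smallest differences was chosen after they were seen. The alternatives tried were other length windows, a border tolerance, all 3 lists, deeper or wider peaks, the main arms, each strand, summed depth, other positions and another distance.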

Additional observations from a re-analysis of the deposited data

How the results depend on the processing

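Each of 21 values was recomputed in turn, giving 202 alternative values, of which 146 stayed within the 95% interval of the value reported (for the number of gaps, within 1.5 times). No value left its interval with lengths of 45 to 80 or 55 to 70 nt, with borders within 2 nt, on the main arms or with the base taken at 26 nt. Upstream medians of width stayed above downstream ones in every list under each setting that changed the gaps. The number of gaps was 151 with all 3 lists required, 384 with peaks at or above their list's median depth, 634 with peaks of at least 10 nt, 611 on plus and 621 on minus. The next values are in the order eIF4AIII/Y14, Btz/eIF4AIII, Y14/eIF4AIII unless named. By summed depth (depth times width) the upstream side was the larger at 90.4%, 74.4% and 64.4%. Shares deeper upstream without equal depths (chosen after seeing the data) were 84.8%, 64.5% and 59.7%. With equal depths counted, the eIF4AIII/Y14 share deeper upstream was 80.7% with peaks of at least 10 nt, 74.8% on plus and 80.6% on minus.

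With all 3 lists required, eIF4AIII/Y14 had median widths of 46 nt upstream and 12 nt downstream, Btz/eIF4AIII 59 and 41 nt, and Y14/eIF4AIII 19 nt downstream. Equal depths made up 1.99% and 4.64% in the first lists, and 6.62% of gaps had another within 1000 nt. With peaks at or above the median depth, eIF4AIII/Y14 had a median width of 44.5 nt upstream, Btz/eIF4AIII 60 and 42 nt, and Y14/eIF4AIII 41 and 28.5 nt. Equal depths were then 6.34% and 1.92% in the first lists, coverage by the list left out was 72.8% and 11.8% in eIF4AIII/Y14, 70% upstream for Btz/eIF4AIII and 20.6% with 9.68% for Y14/eIF4AIII, and 9.38% of gaps had a neighbour. With peaks of at least 10 nt, widths were 46 and 23 nt, 58 and 43 nt, and 32 nt downstream in Y14/eIF4AIII, and equal depths 3.52%, 4.25% and 25.6%. eIF4AIII/Y14 then covered 30.6% downstream, Btz/eIF4AIII 87.4% and 71.3%, Y14/eIF4AIII 33.2% and 18.7%, and 18.3% of gaps had a neighbour. When any base within 50 nt counted, eIF4AIII/Y14 covered 59.0% downstream, Btz/eIF4AIII 84.8% downstream and Y14/eIF4AIII 33.4% and 28.2%. Gaps with a neighbour were 20.1% on plus, 25.3% on minus and 15.4% within 500 nt. The cause of these differences was not tested. Requiring all 3 lists gives no coverage by a list left out. No paired analysis was possible because 1 library stood for each purification. Peaks below the authors' threshold are not seen, so an absent flank does not show absent RNA.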
